A study of Mus musculus with 6 samples.

Results

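The genes for the auxiliary subunits of voltage-gated calcium channels were examined in neurons of the preBötzinger Complex (preBötC), the brainstem region that generates the rhythm of breathing. The members are the 8 genes of the β family (Cacnb1 to Cacnb4) and the α2δ family (Cacna2d1 to Cacna2d4). They were chosen by name, not by their values, from the 49568 gene rows that each sample lists. RNA was sequenced from 3 samples of Dbx1 neurons and 3 samples of non-Dbx1 neurons, each a pool of 15 neurons drawn by suction into glass micropipettes from a slice, and each from a different mouse at postnatal day 2. All 6 mice were Dbx1CreERT2; Rosa26tdTomato offspring, in which tamoxifen-induced Cre switches on the red fluorescent protein tdTomato in cells from Dbx1-expressing progenitors. Dbx1 neurons were the fluorescent somata. Non-Dbx1 neurons were neuronal somata without tdTomato, so a cell of the Dbx1 lineage that escaped recombination would be counted among them. The non-Dbx1 samples came from mice with the same alleles, so both groups share the driver, the reporter and the drug.

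High-voltage-activated calcium channels are built around a pore-forming α1 subunit. The β subunit is a cytosolic protein that binds the pore's intracellular I-II linker, helps it reach the membrane and shapes its gating. The α2δ subunit is a largely extracellular protein, cut from a common precursor into linked α2 and δ parts, that raises the number of channels at the surface and at release sites. The proteins of Cacna2d1 and Cacna2d2 are the binding targets of gabapentin and pregabalin. T-type pores, which open at low voltage, do not require either subunit.

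RefSeq promoter windows are printed for the α2δ genes that were the highest of their family in any sample. These were Cacna2d3 in 5 samples and Cacna2d1 in Dbx1 replicate 2 alone. Cacna2d2, which also had 1 window, is not printed. Both windows are given 5′ to 3′ on the gene's strand in mouse build GRCm38.p6, from 250 bases before the annotated start to 50 bases after it. Cacna2d1 lies at chr5:15934441-15934740 on the plus strand and Cacna2d3 at chr14:29721815-29722114 on the minus strand. Capitals mark every GC box, GGGCGG on either strand with overlapping matches counted.
Cacna2d1: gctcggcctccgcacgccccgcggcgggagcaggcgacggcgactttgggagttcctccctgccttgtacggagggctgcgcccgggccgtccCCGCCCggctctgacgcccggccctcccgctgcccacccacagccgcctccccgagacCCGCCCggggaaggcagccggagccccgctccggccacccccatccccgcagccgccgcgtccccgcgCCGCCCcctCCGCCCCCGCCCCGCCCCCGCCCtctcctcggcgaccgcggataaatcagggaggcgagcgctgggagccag
Cacna2d3: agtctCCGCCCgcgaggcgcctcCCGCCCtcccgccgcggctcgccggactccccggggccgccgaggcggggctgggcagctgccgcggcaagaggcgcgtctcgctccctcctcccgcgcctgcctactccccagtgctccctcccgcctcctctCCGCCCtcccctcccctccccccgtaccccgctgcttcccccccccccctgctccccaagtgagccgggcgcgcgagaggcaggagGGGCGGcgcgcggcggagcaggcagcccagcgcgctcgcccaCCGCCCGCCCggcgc
The Cacna2d1 window held 7 GC boxes and was 80.0% G or C. The Cacna2d3 window held 6 GC boxes and was 81.3% G or C. At least 1 GC box was found in 35.7% of the 32851 mouse promoter windows of this length. The windows held 42 and 41 CpG dinucleotides, and 97.0% and 96.5% of all windows held fewer. Neither window held the TATA motif TATAAA or the motif CCAAT on either strand, which occurred in 13.6% and 37.4% of all windows. The 2 windows were alike in these counts. RefSeq windows were found for 7 of the 8 members, all but Cacna2d4.

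Levels were read as RPKM, the unit of the deposited values, in which the reads of a gene are divided by its length in kilobases and by the depth of the library. The spacing of the values gave 6464675 to 9432958 reads on genes per sample. All 6 neuronal markers examined (Snap25, Syn1, Tubb3, Eno2, Rbfox3 and Stmn2) were measured, with summed levels of 1326 to 2202 RPKM. Of 6 microglial markers, Tmem119 and Itgam were at 0 in every sample, and the 6 together summed to 0.202 to 2.97 RPKM. Erythroid genes (5 of 5 measured) summed to 90.3 to 507 RPKM in the Dbx1 samples against to 733 to 14058 RPKM in the non-Dbx1 samples. Oligodendrocyte lineage genes summed to 16.4 to 73.6 RPKM against 46.5 to 388 RPKM, and astrocyte genes to 27.2 to 50.7 RPKM against 49.2 to 63.4 RPKM. Endothelial genes summed to 69.3 RPKM in non-Dbx1 replicate 2, and motor neuron genes to 54.4 RPKM in non-Dbx1 replicate 3. Dbx1 replicate 2 stood apart in its neuron markers. Its inhibitory genes (Gad1, Gad2, Slc32a1 and Slc6a5) summed to 45.7 RPKM against 97.7 to 142.9 RPKM in the other 5 samples, and its excitatory genes (Slc17a6 and Slc17a7) to 128 RPKM against 13.6 to 54.9 RPKM. The part of these other transcripts in the member values was not tested.

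Among the 4 β genes, Cacnb3 was the most abundant in every sample. Cacnb3, on chromosome 15 (98630840 to 98644529, plus strand), measured 68.4, 52.3 and 30.8 RPKM in Dbx1 replicates 1, 2 and 3, and 73.8, 72.3 and 74.1 RPKM in non-Dbx1 replicates 1, 2 and 3. All 3 Dbx1 values were below all 3 non-Dbx1 values, which lay close together. The means were 50.5 ± 18.9 and 73.4 ± 0.988 RPKM (SD, n = 3 each). Averaged over the 6 samples, Cacnb3 was at 62.0 RPKM, and 95.5% of the 17614 genes tested had a lower mean. Each value rested on 668 to 2182 reads.

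Cacnb1, which encodes the β1 subunit of skeletal muscle channels and has a neuronal splice form, is on chromosome 11 (98001508 to 98023034, minus strand). It measured 6.11, 5.31 and 10.4 RPKM in the Dbx1 samples against 7.09, 9.36 and 11.4 RPKM in the non-Dbx1 samples. The groups overlapped, and the 6 values spanned a 2.14-fold range, the narrowest of the 7 members read in every sample. Cacnb2, the main β gene of heart muscle, is on chromosome 2 (14603088 to 14987908, plus strand) and measured 2.45, 3.36 and 3.76 RPKM in the Dbx1 samples against 1.04, 1.56 and 2.05 RPKM in the non-Dbx1 samples. The lowest Dbx1 value exceeded the highest non-Dbx1 value, with means of 3.19 ± 0.668 and 1.55 ± 0.504 RPKM (SD, n = 3 each) and a 2.06-fold ratio. Cacnb4, the gene altered in the ataxic lethargic mouse, is also on chromosome 2 (52428320 to 52676831, minus strand). It measured 3.45, 2.28 and 3.95 RPKM in the Dbx1 samples against 0.857, 1.36 and 4.69 RPKM in the non-Dbx1 samples. Its highest and lowest values were both in non-Dbx1 samples, on 719 and 90 reads.

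Among the 4 α2δ genes, Cacna2d3 was the most abundant in 5 of 6 samples and Cacna2d1 in the remaining sample, Dbx1 replicate 2. Cacna2d3, on chromosome 14 (28904943 to 29721864, minus strand), measured 58.4, 10.6 and 113.9 RPKM in the Dbx1 samples against 59.1, 56.4 and 36.3 RPKM in the non-Dbx1 samples. Its highest and lowest values were both in Dbx1 samples and differed 10.7-fold, on 2928 and 296 reads. The means were 61.0 ± 51.7 and 50.6 ± 12.5 RPKM (SD, n = 3 each). Of the genes tested, 92.5% had a smaller spread of log2 values within groups. Cacna2d1, on chromosome 5 (15934691 to 16374511, plus strand), measured 3.74, 13.6 and 5.72 RPKM in the Dbx1 samples against 1.96, 3.73 and 1.13 RPKM in the non-Dbx1 samples. The groups did not overlap, although the lowest Dbx1 value (591 reads) and the highest non-Dbx1 value (633 reads) were 3.743 and 3.725 RPKM, a gap smaller than the counting error of either. The means were 7.70 ± 5.23 and 2.27 ± 1.33 RPKM (SD, n = 3 each), a 3.39-fold ratio. The sample with the least Cacna2d3, Dbx1 replicate 2, had the most Cacna2d1, on 2038 reads, and was the sample with the low inhibitory and high excitatory sums given above.

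Cacna2d2, the gene altered in the ataxic ducky mouse, is on chromosome 9 (107399612 to 107529343, plus strand). It measured 2.28, 0.929 and 3.24 RPKM in the Dbx1 samples against 3.10, 4.74 and 2.73 RPKM in the non-Dbx1 samples, and the groups overlapped. Cacna2d4, best known from photoreceptors, is on chromosome 6 (119236526 to 119352407, plus strand). It measured 0.00933 RPKM (1 read) in Dbx1 replicate 1 and 0.184 RPKM (16 reads) in non-Dbx1 replicate 1, and 0 in the other 4 samples. A count of 0 allows up to 3 reads, which for Cacna2d4 would have been 0.0236 to 0.0344 RPKM over the 6 samples, so a level under that cannot be told from 0 in a sample listed at 0. These limits cover counting error only, since amplified reads without molecular identifiers are not independent molecules.

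**Figure D1:**
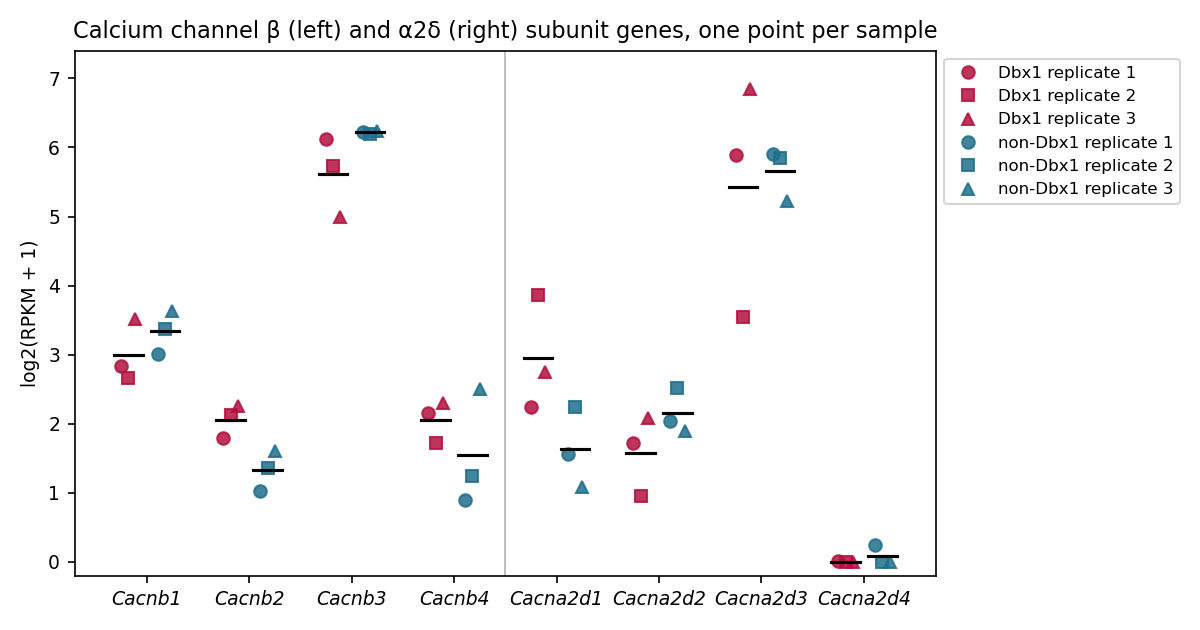
Level of each of the 8 genes as log2(RPKM + 1), with 1 point per sample (Dbx1 in red, non-Dbx1 in blue, the marker shape giving the replicate number) and a bar at each group's mean. Cacnb3 and Cacna2d3 sit highest, and Cacna2d3 has its highest and lowest points both among the Dbx1 samples.

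On average over the samples, 1 gene made up most of the summed RPKM of each family. With the deposited values, Cacnb3 did so in every sample and Cacna2d3 in every sample but Dbx1 replicate 2. Cacnb3 made up 80.9% of the summed β RPKM on average over the 6 samples, and between 62.9% and 89.1% in single samples. Cacnb1 made up 11.5%, Cacnb4 3.95% and Cacnb2 3.56%. Cacna2d3 made up 82.5% of the summed α2δ RPKM on average, and between 42.2% and 92.7% in single samples. Cacna2d1 made up 12.7%, ranging from 2.81% to 54.1%, with the highest share in Dbx1 replicate 2, and averaged 4.41% without that sample. Cacna2d2 made up 4.80%, and Cacna2d4 at most 0.285% of any sample. The summed β level was 48.9 to 92.2 RPKM per sample, and the summed α2δ level 25.2 to 122.8 RPKM.

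**Figure D2:**
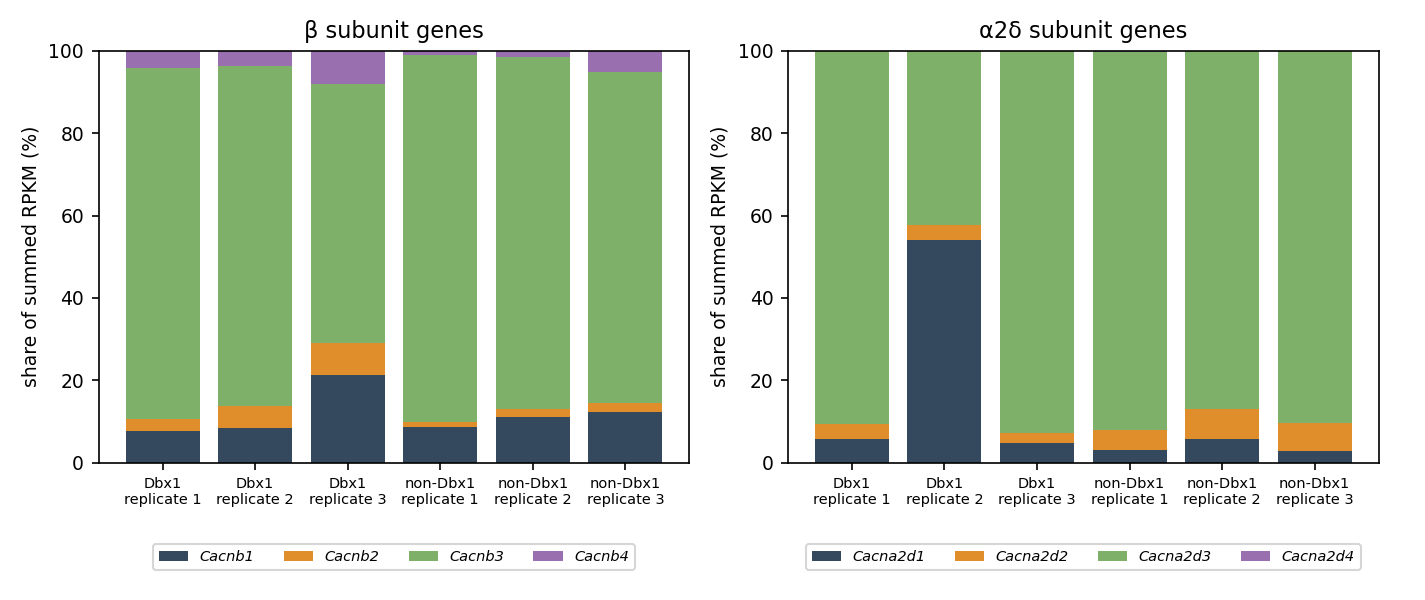
Share of each gene in the summed RPKM of its family (%), as stacked bars with 1 bar per sample, β genes on the left and α2δ genes on the right. Cacnb3 fills 62.9% to 89.1% of the β bars, while Cacna2d1 reaches 54.1% of the α2δ bar in Dbx1 replicate 2.

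These shares depend on the gene length by which the reads were divided. The lengths implied by the deposited values were compared with GENCODE vM21 annotation. Over 10112 genes with at least 300 reads, the implied length was longer than the gene's merged exons for 75.05% of genes, with a median ratio of 1.41, and 25.4% equalled the sum of all distinct annotated exons, in which overlapping exon variants are each counted. The implied length of Cacnb4, 16236 bases, equalled that sum and was well above its merged exons, 8963 bases. For Cacna2d3 the implied length was 3695 bases, equal to its longest annotated transcript and below its merged exons, 8720 bases. Cacnb3, at 3120 against 4010 bases, was the only other member with an implied length below its merged exons. Relative to merged exons, the deposited lengths therefore raise the shares of both leading genes. With merged exon lengths, Cacnb3 made up 67.2% of the β sum and Cacna2d3 62.9% of the α2δ sum, against 24.1% for Cacna2d1. In single samples the lowest such shares were 43.8% for Cacnb3 and 16.2% for Cacna2d3, and the highest for Cacna2d1 was 78.6%. Under this length and under that of the longest transcript, Cacnb3 remained the highest β gene in 6 of 6 samples and Cacna2d3 the highest α2δ gene in 5 of 6. The length cancels in a ratio of 1 gene's RPKM between samples. It does not fully cancel in a difference of log2(RPKM + 1), the scale of the group comparison below, where the added 1 weighs more on low values. For Cacnb2 the group difference was 0.72 on that scale and 1.04 as the log2 ratio of group mean RPKM.

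**Figure D3:**
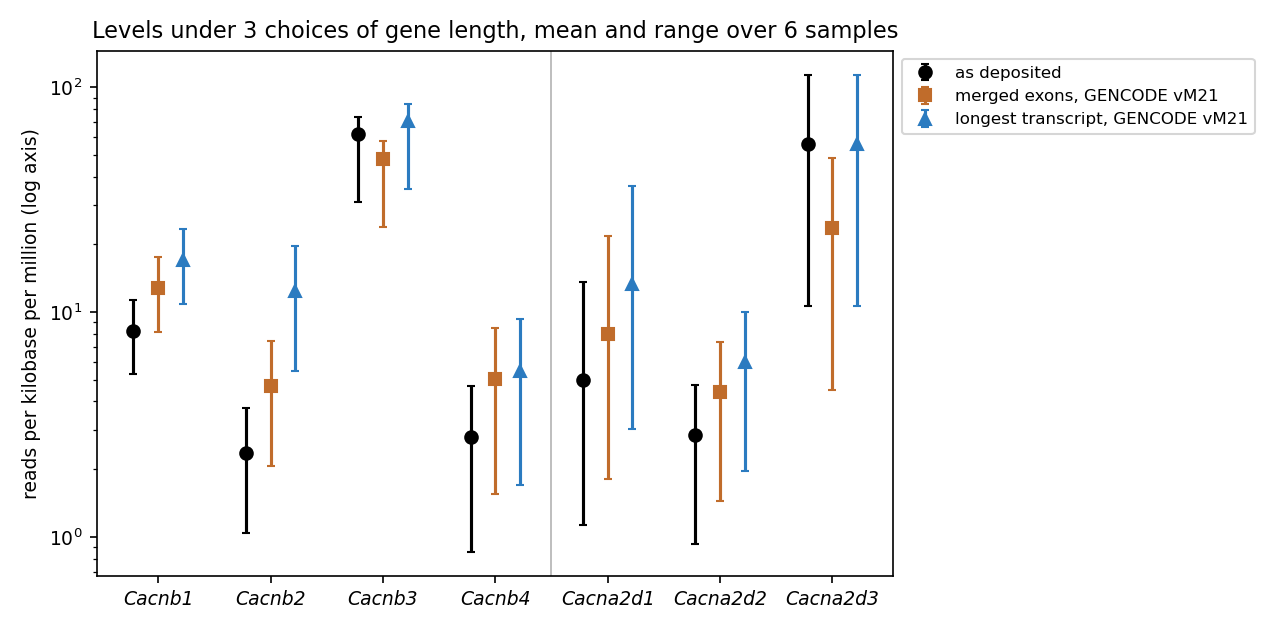
Mean level over the 6 samples (points) and range from the lowest to the highest sample (bars) for the 7 members read in every sample, in RPKM on a log axis, with the reads divided by the deposited length, merged exons or the longest transcript. Cacnb3 and Cacna2d3 stay first and second, and the mean of Cacnb2 moves the most.

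Ordered by mean log2(RPKM + 1), the members ran Cacnb3, Cacna2d3, Cacnb1, Cacna2d1, Cacna2d2, Cacnb4, Cacnb2 and Cacna2d4. Neighbours in this order were compared within samples by a two-sided exact sign-change test, which cannot fall below 0.03125 with 6 samples. The order was taken from the same 6 samples, so the direction of each mean step was fixed beforehand and the p values are descriptive. Cacnb3 exceeded Cacna2d3 by 0.37 ± 1.32 on the log2 scale (SD, n = 6) and was higher in 5 of 6 samples (exact p = 0.5). Cacna2d3 exceeded Cacnb1 by 2.37 ± 0.948 and was higher in 6 of 6 samples (exact p = 0.03125, adjusted to 0.109 over the 7 pairs). The size of this step depended on the gene length: it was 0.62 and held in 4 of 6 samples with merged exon lengths (exact p = 0.188), and was 1.42 and held in 5 of 6 samples with the longest transcript (exact p = 0.0625). The last step, from Cacnb2 to Cacna2d4, was 1.65 ± 0.536 and also held in 6 of 6 samples (exact p = 0.03125, adjusted to 0.109). Cacna2d4 was at 0.184 RPKM or less in every sample, so its near absence settled that outcome. The steps between Cacnb1, Cacna2d1, Cacna2d2, Cacnb4 and Cacnb2 were 0.06 to 0.88 on the same scale, with exact p values of 0.156 to 0.875. The order of Cacna2d2 and Cacnb4 turned with merged exon lengths and that of Cacnb4 and Cacnb2 with the longest transcript, and further steps turned when samples were left out, so the sequence of the low members was not resolved. Cacna2d1 was above Cacna2d2 by 1.37 in the Dbx1 samples alone and below it, at -0.52, in the non-Dbx1 samples alone. Cacna2d2 was below Cacnb4, at -0.48, in the Dbx1 samples alone and above it by 0.60 in the non-Dbx1 samples alone.

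The comparison of Dbx1 with non-Dbx1 neurons was tested with limma on log2(RPKM + 1) across the 17614 genes above 0 in at least 3 samples, with Benjamini-Hochberg adjustment (FDR) over all of them. A log2 fold change (L2FC) on this scale is Dbx1 minus non-Dbx1 and understates the change of low genes. At an FDR under 0.1, 0.00568% of the genes tested, 1 gene, passed. The study's own DESeq2 test of counts, at the same FDR threshold, called more genes, among them Gata2, Hif1a, Pbx3, Htr1a, Syt10 and Trpc4. The fit used here called fewer, so the lack of a call among the members does not show that they did not differ. Of the members, 7 of 8 could be tested and 0 passed, with FDR values from 0.912 to 0.984. At an unadjusted p under 0.05, the limma fit called 5.2% of the genes tested and 0 of 7 members. A voom fit on the recovered reads and a limma fit without a trend each also called 0 members at an FDR under 0.1, but brought Cacnb2 and Cacna2d1 under an unadjusted p of 0.05. In limma fits Cacna2d1 also came under it with a pseudocount of 0.1, with genes at 1 RPKM or more in at least 3 samples, without non-Dbx1 replicate 2 and, together with Cacnb3, without Dbx1 replicate 1. Since the pools hold several kinds of neuron, fewer cells of a type and less RNA per cell cannot be told apart in any of these differences.

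In direction, 3 of the 7 members had a positive L2FC and 4 a negative one, with a median of -0.23 against 0.0089 over all genes tested. The groups did not overlap for 2 members higher in Dbx1 neurons, Cacnb2 and Cacna2d1, against 5.35% of the genes tested, and for 1 member lower in Dbx1 neurons, Cacnb3, against 5.24%. The L2FC of Cacna2d1 was 1.32 with an SE of 0.608 and a 95% interval of -0.07 to 2.72 (limma FDR 0.912). The L2FC of Cacnb2 was 0.72 with an interval of -0.49 to 1.94 (limma FDR 0.940). The L2FC of Cacnb3 was -0.60 with an interval of -1.29 to 0.09 (limma FDR 0.913). Without Dbx1 replicate 2 the L2FC of Cacna2d1 was 0.87, and without Dbx1 replicate 3 that of Cacnb3 was -0.29. Each of these 3 had an exact permutation p of 0.1, the smallest that 3 against 3 samples allow. Any gene without overlap must have that value, so it restates the lack of overlap and adds no support. Sums of other cell-type genes separated the same samples. The erythroid sums were lower in all 3 Dbx1 pools, as given above, and the excitatory sums were higher, at 47.7 to 128 RPKM in Dbx1 pools against 13.6 to 36.0 RPKM in non-Dbx1 pools, carried almost wholly by Slc17a6, which encodes a vesicular glutamate transporter. Their part in these 3 differences was not tested.

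For the other members the intervals were wide and included both directions. The L2FC was -0.34 for Cacnb1, 0.51 for Cacnb4 and -0.57 for Cacna2d2, with limma FDR values of 0.960, 0.960 and 0.952. Single samples moved these values: Cacnb4 was at 0.18 without non-Dbx1 replicate 1 and at 0.99 without non-Dbx1 replicate 3, Cacna2d2 at -0.25 without Dbx1 replicate 2, and Cacnb1 at -0.17 without Dbx1 replicate 2 and at -0.60 without Dbx1 replicate 3. Cacna2d3 had an L2FC of -0.23 with an interval of -1.88 to 1.42 (limma FDR 0.984). This value rested on Dbx1 replicate 2, since without that sample it was 0.71, and the log2 ratio of the group mean RPKM was 0.27. The count of members without overlap rose from 3 to 5 when Dbx1 replicate 3 was left out, where 20.5% of the genes tested did not overlap in either direction, and to 4 without non-Dbx1 replicate 3, where 21.8% did not. The added members were Cacnb1 and Cacna2d2 in the first case and Cacnb4 in the second. Leaving out a sample can add members without overlap but cannot remove any. Where the count stayed at 3, between 17.6% and 20.4% of the genes tested did not overlap. The limma p-values and intervals rest on the spread between pools of 15 neurons from different mice, moderated toward that of genes at similar levels. They are therefore not set by a member's own spread alone. For Cacnb2, the SD of log2 values within groups was 0.266, and 14.7% of the genes tested had a smaller one. Its limma SE was 0.531.

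**Figure D4:**
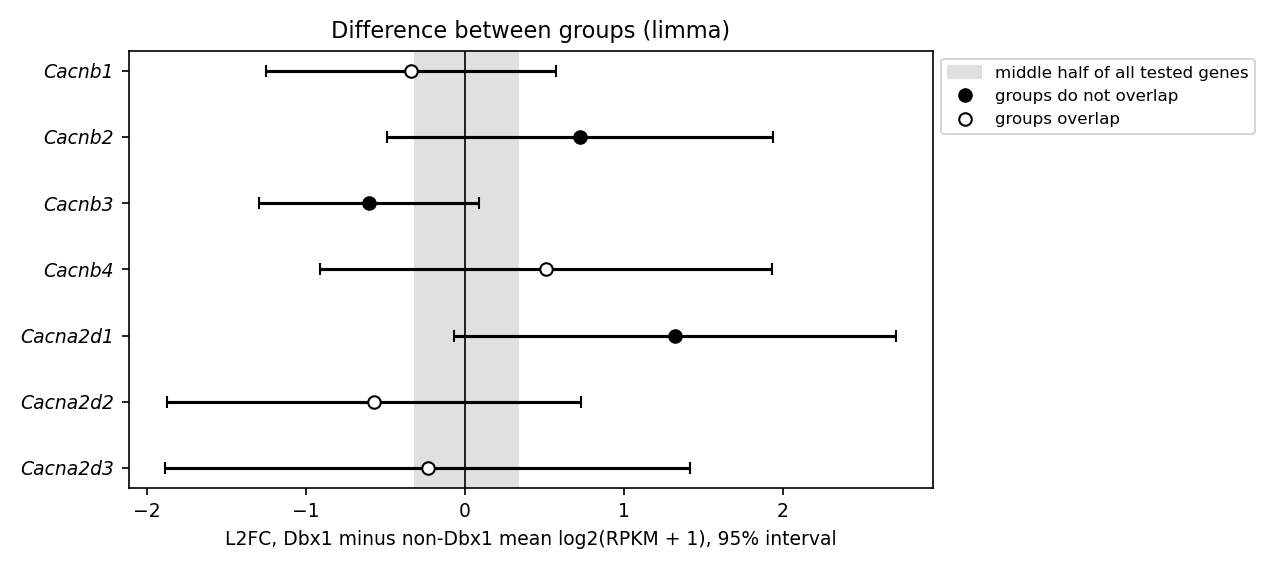
L2FC between groups (points) with its 95% limma interval (lines) for the 7 members tested; filled points mark members whose groups did not overlap and the grey band spans the quartiles of all tested genes, -0.32 to 0.34. All 7 intervals include 0, and that of Cacna2d1 reaches from -0.07 to 2.72.

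The partners of these subunits were read from 7 lists of 38 genes. Of these, 33 could be tested, 0 passed an FDR under 0.1, and 2 had an unadjusted limma p under 0.05 (voom was counted for the members only). The 7 high-voltage-activated pore genes were led by Cacna1b (N-type, 9.95 RPKM on average over 6 samples) and Cacna1a (P/Q-type, 8.67 RPKM). Their groups overlapped for all 7 genes, and their summed level was 11.9 to 44.4 RPKM per sample. The summed β level per summed pore level was 1.14 to 6.78, and the summed α2δ level per pore level 0.996 to 5.43. These are ratios of RNA and do not give ratios of the proteins. The extremes of both ratios were in Dbx1 samples. For β per pore the group means were 3.47 ± 2.94 in Dbx1 and 3.64 ± 2.23 in non-Dbx1 samples (SD, n = 3 each). With merged exon lengths the ranges of the β and α2δ ratios were 0.832 to 4.32 and 0.630 to 2.01. The 3 T-type pore genes, whose channels do not need β or α2δ, were led by Cacna1g (4.44 RPKM) and Cacna1h (1.74 RPKM).

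The 8 γ genes, whose products include the AMPA receptor partners known as TARPs, were led by Cacng4 and Cacng3. Cacng4 measured 18.1, 26.6 and 27.2 RPKM in the Dbx1 samples against 49.9, 51.2 and 30.5 RPKM in the non-Dbx1 samples, with no overlap (L2FC -0.83, unadjusted p = 0.0229, limma FDR 0.912). Cacng3 measured 22.9 ± 2.11 RPKM in the Dbx1 samples against 34.6 ± 7.72 RPKM in the non-Dbx1 samples, also with no overlap (limma FDR 0.912). The RGK genes encode small GTPases that bind β subunits and inhibit channels, and were led by Rem2 (3.81 RPKM) and Gem (1.78 RPKM). Gem measured 3.55, 5.06 and 1.06 RPKM in the Dbx1 samples against 0.0634, 0.958 and 0 RPKM in the non-Dbx1 samples, so that Dbx1 samples were higher without overlap (L2FC 1.59, unadjusted p = 0.0248, limma FDR 0.912). Groups were also separate for Rims1, a release-site scaffold that binds β subunits (14.3 ± 5.11 against 7.99 ± 1.44 RPKM), and for the T-type gene Cacna1i (0.554 ± 0.305 against 1.97 ± 1.03 RPKM), both named after their values were seen.

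In the last 3 lists the groups overlapped for every gene tested other than Rims1. The Stac adaptors were led by Stac (5.65 RPKM) and Stac2 (4.50 RPKM). The genes for α2δ-like proteins and for α2δ ligands were led by Lrp1 (7.79 RPKM), an endocytic receptor, and Cachd1 (2.33 RPKM), an α2δ-like protein. The release-site genes were led by Snap25 (220 RPKM) and Stx1a (31.5 RPKM), both members of the fusion machinery. Over the 33 partners tested, groups were separate for 2 genes higher and 3 genes lower in Dbx1 neurons, as named above, against the 5.35% and 5.24% of all genes. The median L2FC of a list ran from -0.25 for the γ genes to 0.55 for the Stac adaptors, against 0.0089 over all genes tested.

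The genes whose profile was most like that of a member were sought by the root mean square difference between centred log2(RPKM + 1) values over the 6 samples, among 13162 genes. For Cacnb4 these were Ttll12 (0.0639 log2 units), Ddx24 (0.0776) and Amer1 (0.114), against a median of 0.804 over all genes. Ttll12 measured 10.6, 6.85 and 11.3 RPKM in the Dbx1 samples against 3.31, 4.34 and 12.8 RPKM in the non-Dbx1 samples, with the same low and high samples as Cacnb4. For Cacna2d3 the nearest were Klhdc8a (0.248), Wnt3 (0.266) and Gpn2 (0.332), against a median of 1.16. Klhdc8a measured 18.03, 3.14 and 29.2 RPKM in the Dbx1 samples against 11.7, 17.7 and 10.5 RPKM in the non-Dbx1 samples, lowest in Dbx1 replicate 2 and highest in Dbx1 replicate 3 as Cacna2d3 was. These likenesses rest on 6 samples and were picked from all 13162 genes, and they are descriptions only.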

How the data were processed

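Libraries came from SMART-Seq v4 amplified cDNA. According to the study's methods, single-end reads were aligned to mm10 with TopHat2, sorted with SAMtools and counted per Ensembl gene name with htseq-count without strand, and the annotation release is not given in the sources used here. The authors deposited RPKM per gene, reads divided by gene length and by the sample's total on genes. They tested counts with DESeq2, and those counts are not used here.

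The RPKM values were used as deposited. Reads per sample and gene were recovered from the spacing of the values as the smallest whole numbers that give them, and summed to 98.58% to 99.03% of the totals. Because the unit was RPKM, limma 3.58.1 in R 4.3.3 was run on log2(RPKM + 1) with a mean trend, for genes above 0 in at least 3 samples, with Benjamini-Hochberg adjustment and an FDR threshold of 0.1. Exact permutation and sign-change tests were two-sided. The fit was also run on simulated counts in which only well-read genes changed, each by more than any member differed here. That run therefore does not measure the power of the fit for the members. Alternatives were a pseudocount of 0.1, other filters and scalings, no trend, a replicate block, leaving out each sample, and, chosen after seeing the data, voom on recovered reads and other gene lengths. All 8 members and the 2 highest genes by mean RPKM of each partner list were named by rule, with the profile neighbours of Cacnb4 and Cacna2d3. The members and lists were chosen with earlier results of these data known. Gene positions and lengths are from GENCODE vM21 (GRCm38). Counting without strand cannot separate reads of overlapping genes, and exons of Cacnb1, Cacnb2, Cacnb4 and Cacna2d2 overlap opposite-strand genes, by 1433 bases for Cacnb4.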

Additional observations from a re-analysis of the deposited data

How the results depend on the processing

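The count of members past an FDR under 0.1 stayed at 0 in each fit run. The 6 members other than Cacna2d3 kept the sign of their L2FC over the 15 alternatives, with lowest and highest values of 0.87 and 1.76 for Cacna2d1, 0.57 and 1.04 for Cacnb2, -0.86 and -0.29 for Cacnb3, -0.60 and -0.17 for Cacnb1, 0.18 and 0.99 for Cacnb4 and -0.86 and -0.25 for Cacna2d2. Among these alternatives, the other gene filters, the fit without a trend and the replicate block cannot change an L2FC. They were therefore no check on its sign. The L2FC of Cacna2d3 reversed to 0.71 without Dbx1 replicate 2, with a range of -0.94 to 0.71 when each sample was left out, and to 0.27 as the log2 ratio of group means. The count of genes called, 1, became 0 with a pseudocount of 0.1, with genes above 0 in at least 1 sample and with voom, and 3 without a trend. Leaving out each sample gave 0 to 1 genes called, 0 without non-Dbx1 replicate 3. It gave 3 to 5 members without overlap, 5 without Dbx1 replicate 3, where 20.5% of the genes tested did not overlap. Leaving out a sample cannot lower that count. The cause of these shifts was not tested.

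Replicate numbers are shared between groups, but the mice differ, and the main fit did not pair samples by number. The deviations of same-numbered samples correlated at -0.107, 0.0248 and -0.0522, and those of other pairs at -0.0824 to 0.133. These values depend on one another, so they cannot exclude a batch shared by number. With the replicate block, 0 genes passed an FDR under 0.1, genes at an unadjusted p under 0.05 went from 916 to 819, and the lowest member FDR was 0.980.

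In the order, the step from Cacna2d2 to Cacnb4 reversed to -0.10 with merged exon lengths and the step from Cacnb4 to Cacnb2 to -1.09 with the longest transcript. With a sample left out, the step from Cacna2d1 to Cacna2d2 was -0.07 without Dbx1 replicate 2, that from Cacna2d2 to Cacnb4 -0.15 and -0.18 without non-Dbx1 replicates 1 and 2, and that from Cacnb4 to Cacnb2 -0.05 without non-Dbx1 replicate 3. With merged exon lengths the mean shares moved to 18.3% for Cacnb1, 7.17% for Cacnb2, 67.2% for Cacnb3, 7.26% for Cacnb4 and 12.9% for Cacna2d2. As shares of reads, undivided by length, they were 17.7% for Cacnb2, 53.9% for Cacnb3, 12.2% for Cacnb4, 11.1% for Cacna2d2, 29.0% for Cacna2d1 and 59.7% for Cacna2d3. Depth limited Cacna2d4, with at most 16 reads in a sample.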
